A study of Drosophila melanogaster with 12 samples.

Results

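The ecdysone receptor EcR is a nuclear receptor that binds DNA together with its partner Ultraspiracle (USP), and the steroid hormone ecdysone is its ligand. With hormone bound, the pair activates many of its targets, and without hormone it recruits corepressors and can hold targets down. A pulse of ecdysone at the end of larval life starts metamorphosis, when the wing disc of the fly turns from a growing, patterned epithelium into a folding, cuticle-secreting wing. The regions described here are those that had a called EcR peak in the larval wing, that had no called EcR peak in the prepupal wing, and that lay far from every region bound at both stages. They were called far larval-only peaks. A peak of the -6 h list belonged to them when it shared no base with any peak of the +6 h list and lay more than 10 kb, edge to edge, from every -6 h peak that did overlap a +6 h peak. This rule kept 2747 of the 4965 peaks of the -6 h list (55.3%), and 6175 peaks were listed over both stages.

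EcR binding was mapped by CUT&RUN, in which an antibody directs a nuclease to cut the DNA around a bound protein, in female Drosophila melanogaster wings taken 6 h after (+6 h) or 6 h before (-6 h) the puparium forms, with 2 libraries per stage. The +6 h wings came from animals staged as white prepupae, and the -6 h wings came from wandering larvae, all raised at 25 degrees. All 4 libraries came from w animals in which the tagged allele EcR[GFSTF] stood over the deficiency Df(2R)BSC313, and an anti-FLAG antibody recognised the tag. No library without the tag was used here, and the labels do not say how many animals a library pooled. The authors merged the 2 libraries of a stage before calling peaks, so that each stage gave 1 list and no value here has a replicate error or a test. Read depth of the CUT&RUN libraries was not given in the sources used here, and a region with no called peak at +6 h may still have been bound at a lower level. In a whole wing, binding in fewer cells and weaker binding in each cell cannot be told apart.

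In RNA libraries of wild-type wings of the same stages (2 per stage), which carried no tagged allele, the wing genes vg, nub, rn, sd, ap, wg, bi and salm summed to 22933 and 23144 normalized counts at +6 h and to between 26611 and 27610 at -6 h. The lowest value among these 8 genes in any of those libraries was 768 normalized counts. Markers of other cells were present too. The 4 myoblast genes summed to 4947 and 6077 normalized counts at +6 h, against 2496 and 3145 at -6 h. The 4 haemocyte genes summed to 708 and 775 at +6 h, against 188 and 423 at -6 h, but they did not move together. Hml was lower at +6 h, at 11.9 and 16.8 against 110 and 52.5 at -6 h. The genes srp, nimC1 and Pxn were higher at +6 h, and srp rose most in counts, to 483 and 444 from 92.0 and 43.6. The 5 fat body genes summed to 235 and 343 at +6 h, against 191 and 531 at -6 h. The 4 gut genes summed to at most 4.2 normalized counts. The 4 notum genes, which the dissected discs also hold, were at 6551 to 6600 normalized counts at +6 h. They were at 7714 to 8711 at -6 h, and eyg made up only 290 to 488 of these sums over both stages. The 2 trachea genes were at 629 to 668 at +6 h and 763 to 784 at -6 h. Most of that was trh, with btl at 31.3 to 80.3 over both stages. The neuron gene elav was at 616 to 670 at +6 h and 728 to 821 at -6 h. The part of these cells in the peak lists was not tested.

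The +6 h list held 1210 peaks, of which 799 overlapped a -6 h peak and 411 did not. Of the -6 h peaks, 4184 had no overlapping +6 h peak (84.3%). They divided into the 2747 far peaks and 1437 near larval-only peaks, which lay within 10 kb of a shared peak. The remaining 781 peaks of the -6 h list were shared with +6 h. Overlap with the +6 h list and distance to shared peaks chose the members, so what follows on height and distance is a description and not a test.

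Far larval-only peaks were mostly low. Their fold enrichment over background, a value of the authors' peak caller, had a median of 5.51, with quartiles at 4.50 and 7.11 and a range of 2.76 to 34.8. Near larval-only peaks had a median of 6.38 (quartiles 4.93 and 9.00), and shared peaks had a median of 15.1 (quartiles 8.28 and 26.6). Of the far peaks, 53 of 2747 (1.93%) reached the median of the shared peaks, as did 84 of 1437 near peaks (5.85%). The lower quartile of the shared peaks was reached by 434 far peaks (15.8%) and by 431 near peaks (29.99%). The ranges of the classes overlapped, with near peaks from 2.86 to 48.2 and shared peaks from 3.46 to 137, but no far peak exceeded 34.8. Far peaks were the lowest by median.

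**Figure D1:**
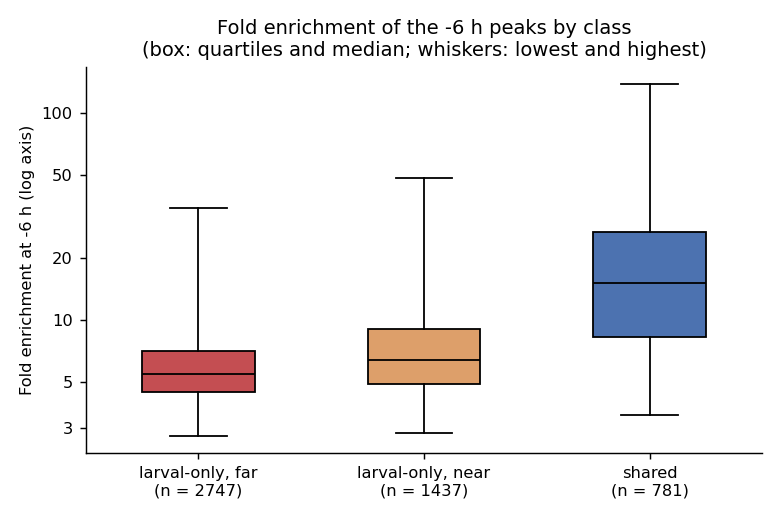
Fold enrichment at -6 h (log axis) of the far larval-only peaks, the near larval-only peaks and the shared peaks; boxes give the quartiles and the median, and whiskers the lowest and highest peak. The box of the far peaks lies between 4.50 and 7.11, below the lower quartile of the shared peaks at 8.28.

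The same order held for the significance that the peak caller gave. The -log10 q, which grows with the confidence that a peak stands above background, had a median of 6.10 in far peaks, 8.16 in near peaks and 33.7 in shared peaks. A -log10 q of at least 10 was reached by 659 far peaks (24.0%), against 586 near peaks (40.8%) and 638 shared peaks (81.7%). A level of at least 50 was reached by 17 far peaks, 32 near peaks and 284 shared peaks. At the other end, 60 far peaks had a -log10 q below 2, and the lowest peak of the whole -6 h list, at chrX:17696467-17696538 (dm3), was a far peak with a -log10 q of 1.36.

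When the -6 h list was divided by -log10 q into 10 height classes of 496 or 497 peaks, far peaks made up a small share of the highest class and a large share of the lowest. In the highest class they were 45 of 497 peaks (9.05%), beside 74 near and 378 shared peaks. In the second class they were 151 of 496 (30.4%). They were the majority in each of the other 8 classes, from 51.1% in the third to 72.6% in the lowest. Each of the 5 lowest classes held between 322 and 360 far peaks.

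**Figure D2:**
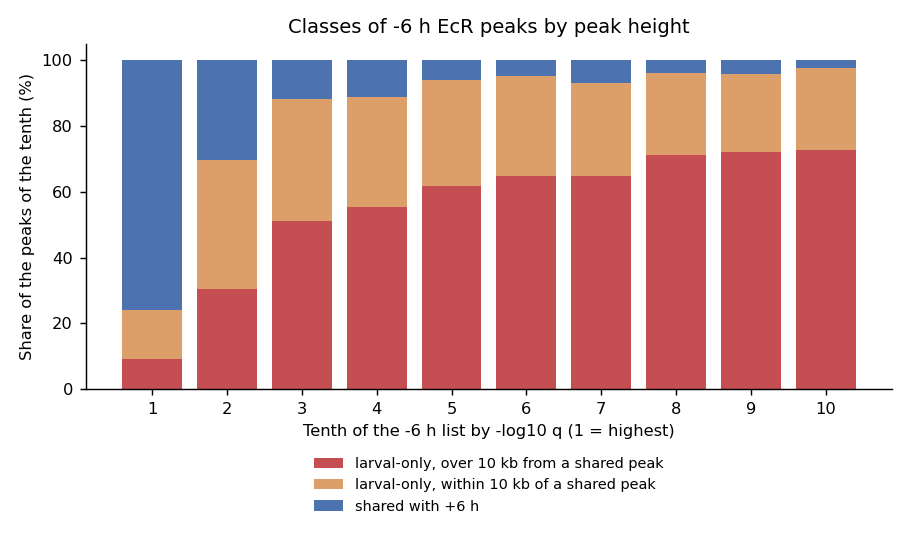
Share of far larval-only, near larval-only and shared peaks in each of 10 height classes of the -6 h list, from the highest -log10 q (left) to the lowest (right). Far peaks are 9.05% of the highest class and 72.6% of the lowest.

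Width followed height. Far peaks had a median width of 149 bp (quartiles 101 and 237 bp, widest 1151 bp), near peaks 174 bp and shared peaks 355 bp. Within a height class the medians lay closer together than over the whole list. In the second height class the median width was 318 bp in far peaks, 332 bp in near peaks and 310 bp in shared peaks, and in the third class it was 279, 265 and 284 bp. In the sixth class far, near and the 24 shared peaks had medians of 150, 151 and 235 bp. In the highest class, where shared peaks also reached far greater heights, far peaks had a median width of 387 bp against 485 bp in near and 516 bp in shared peaks. The summit lay near the middle of the peak in all classes, with a median position of 48.5% of the width in far peaks, 49.3% in near peaks and 48.6% in shared peaks.

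A further view set far peaks beside shared peaks that were themselves isolated. Of all -6 h peaks, 3085 lay more than 10 kb from every other shared peak. Of these, 2747 had no +6 h peak (the far peaks, 89.0%) and 338 were shared. Among the 1880 peaks within 10 kb of another shared peak, 1437 had no +6 h peak (76.4%). Within the height classes the difference was smaller and not of 1 sign. In the highest class 24.5% of the isolated peaks and 23.6% of the others had no +6 h peak. In the second class the order was turned round, with 65.7% of the isolated peaks and 72.9% of the others. In the other 8 classes the isolated peaks more often had no +6 h peak, and the largest difference was 9.90 percentage points. The isolated shared peaks were high, with a median fold enrichment of 13.3, a median -log10 q of 28.8 and a median width of 285 bp.

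The 45 far peaks of the highest class were lower than the 139 isolated shared peaks of that class by median, and had neighbours about as often. The median fold enrichment was 18.4 (quartiles 16.5 and 21.6) in the far peaks and 23.1 (quartiles 18.6 and 33.8) in the isolated shared peaks. The median width was 387 bp in the far peaks and 450 bp in the isolated shared peaks. Another -6 h peak lay within 1 kb of 26 of the 45 far peaks (57.8%) and of 77 of the 139 isolated shared peaks (55.4%). Of these 45 far peaks, 16 were on 2L, 10 on 3L, 8 on 3R, 6 on 2R and 5 on X. Several of the 16 on 2L stood in the same run of 10 far peaks, so they are not independent. Arm 2L held 19 of the 139 isolated shared peaks. The spread over the arms was not tested.

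The 10 far peaks with the highest -log10 q lay between 62.9 and 115 on that scale, between 22.3 and 34.8 in fold enrichment, and between ranks 127 and 248 of the whole -6 h list. The highest of all was at chr2L:19454092-19454486 (dm3, 395 bp). It was 34.8-fold enriched with a -log10 q of 115, and the nearest shared peak was 117 kb away. It was not alone, because the next -6 h peak began 238 bp from its edge and it stood in a run of 6 far peaks. The next highest, at chr2L:7962239-7962593, was 34.6-fold enriched with a -log10 q of 99.05 and lay 50.8 kb from a shared peak. Both stood above the upper quartile of the shared peaks, which was 26.6-fold.

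The highest far peak of arm 2R, at chr2R:10815666-10816083, was 30.7-fold enriched with a -log10 q of 90.4, and it was solitary, with no other -6 h peak within 16.6 kb and no shared peak within 319 kb. The highest of arm 3L, at chr3L:9521974-9522264, was also solitary, at 30.6-fold and a -log10 q of 85.4, with the next -6 h peak 17.7 kb away. These 2 were the only single peaks among the 10, and the other 8 had another -6 h peak within 10 kb. The second far peak of arm 2R in this set, at chr2R:18532190-18532461, was 30.1-fold enriched with a -log10 q of 84.5. It was the only one of the 10 with a +6 h peak within 10 kb, 4.95 kb away and not overlapping any -6 h peak.

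On arm 3R the highest far peak was at chr3R:25589834-25590279, 27.0-fold enriched with a -log10 q of 70.9, in a run of 6 far peaks and 21.1 kb from a shared peak. The widest of the 10 was at chr3L:10708743-10709481 (739 bp), with 26.5-fold enrichment in a run of 8. On the X the highest was at chrX:21249522-21249807, 24.9-fold enriched with a -log10 q of 69.1, and 360 kb from a shared peak. The last 2 of the 10 were at chr2R:7535968-7536342, 23.2-fold enriched and only 10.1 kb from a shared peak, and at chr2L:19905624-19906041, 22.3-fold enriched and 35.8 kb from one.

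Just above and below the 10 kb limit all 4 named peaks were low. The 2 far peaks closest to a shared peak were at chr3L:3259646-3259739, 10.01 kb from it and 4.32-fold enriched, and at chr3L:12461138-12461278, 10.02 kb from it and 3.39-fold enriched. The 2 near peaks closest to the limit were at chr3L:14607422-14607563 (9.996 kb, 5.40-fold) and at chr2L:9496363-9496671 (9.994 kb, 5.50-fold).

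Far peaks lay a median of 76.9 kb from the nearest shared peak (quartiles 29.3 and 156 kb) and a median of 42.2 kb from the nearest +6 h peak of any kind. The density of larval-only peaks was counted against the length of sequence available at each distance, between the first and the last -6 h peak of each arm. It was lower in each bin of greater distance. At 10 to 20 kb from a shared peak there were 5.63 far peaks per 100 kb, at 20 to 50 kb 3.63, at 50 to 100 kb 2.30, at 100 to 200 kb 2.15, and beyond 200 kb 1.72. Closer in, near larval-only peaks numbered 8.22 per 100 kb at 5 to 10 kb, 15.6 at 1 to 5 kb and 40.2 within 1 kb. Shared peaks lay close to each other too, with 278 within 1 kb of another shared peak and 80 beyond 200 kb. The lengths of sequence were measured between shared peaks, so no density is given for shared peaks. Whether the drop in density was particular to larval-only peaks was not tested. Over the whole territory, far peaks had 2.56 peaks per 100 kb of 107 Mb, and near peaks 15.5 per 100 kb of 9.28 Mb.

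Height changed less with distance than density did, though the measures are not alike. A height exists only for a called peak, and the lowest far peak was 2.76-fold enriched, while a density has no such floor. The median fold enrichment of far peaks was 6.11 at 10 to 20 kb, 5.67 at 20 to 50 kb, 5.31 at 50 to 100 kb, 5.53 at 100 to 200 kb and 5.24 beyond 200 kb. Across the 2747 far peaks the Spearman correlation between distance and fold enrichment was -0.11, a description only, since all points come from 1 merged library set and neighbouring peaks are not independent. Near peaks within 1 kb of a shared peak had a median of 6.61. Shared peaks stood above both at every distance from another shared peak, with medians between 11.5 and 17.1.

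**Figure D3:**
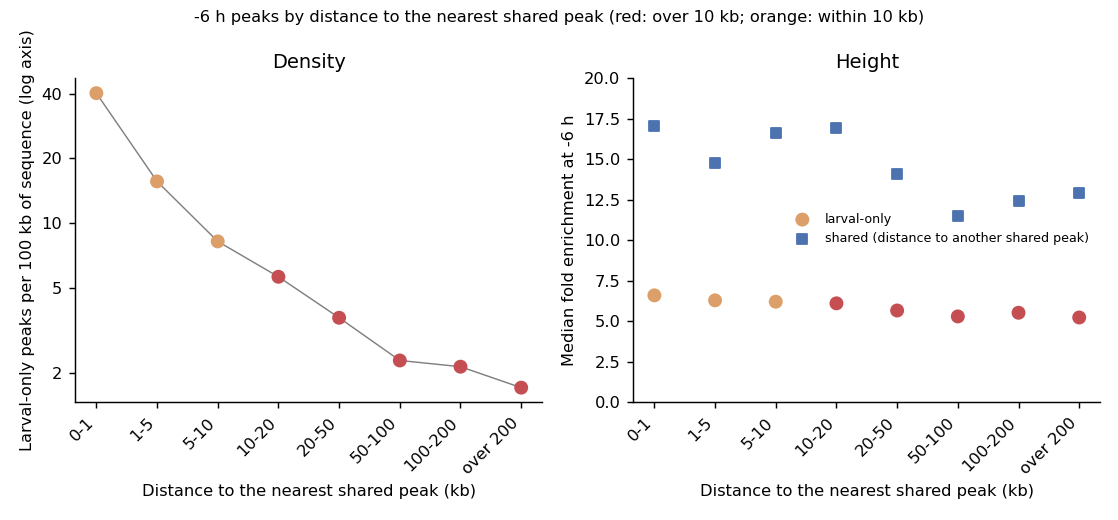
Larval-only peaks per 100 kb of sequence (left, log axis) and median fold enrichment (right), by distance to the nearest shared peak in kb; red points are far and orange points near larval-only peaks, and blue squares are shared peaks by distance to another shared peak. Density drops from 40.2 to 1.72 per 100 kb, while the median fold enrichment of larval-only peaks stays between 6.61 and 5.24.

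The 5 far peaks farthest from a shared peak were low. The farthest, at chr3L:7130823-7131103, was 836 kb from a shared peak and 5.69-fold enriched, and the next 2, at chr3L:7130665-7130739 and chr3L:7127495-7127564, belonged to the same run of 3. These 3 were nonetheless close to the +6 h list, because a +6 h peak that overlapped no -6 h peak lay 3.46, 3.83 and 7.002 kb from them. The other two were at chrX:4824515-4824709, 821 kb from a shared peak and 4.53-fold enriched, and at chr3L:7106088-7106189, 811 kb from one and 3.97-fold enriched.

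Many far peaks had close neighbours, though they were the most widely spaced of the 3 classes by median. The gap from a far peak to the nearest other -6 h peak of any class had a median of 1680 bp, against 442 bp for near and 387 bp for shared peaks. The rule bears on this order, because every near peak has a shared peak within 10 kb and no far peak has one. The gap from a far peak to the next far peak had a median of 1.73 kb, with quartiles at 332 bp and 13.3 kb. Of the 2747, 1183 (43.1%) had another far peak within 1 kb, and 493 (17.9%) within 250 bp. At the other end, 735 far peaks (26.8%) had no other -6 h peak of any class within 10 kb. Far peaks chained over gaps of at most 10 kb formed 1344 runs, of which 774 were single peaks and 570 held 2 or more. The 570 runs held 1973 far peaks (71.8%), the 116 runs of 5 or more held 813 (29.6%), and the 19 runs of 10 or more held 226 (8.23%).

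Far peaks in larger runs had higher medians. The median fold enrichment was 5.04 for single far peaks, 5.58 in runs of 2 to 4, 5.88 in runs of 5 to 9 and 6.18 in runs of 10 or more, although the quartiles of all 4 sets overlapped. A -log10 q of at least 10 was reached by 15.0% of single far peaks and by 38.9% of those in runs of 10 or more. Seen from the height classes, 7 of the 45 far peaks of the highest class (15.6%) were single and 25 (55.6%) stood in runs of 5 or more. In the lowest class 133 of 360 (36.9%) were single and 80 (22.2%) stood in such runs.

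**Figure D4:**
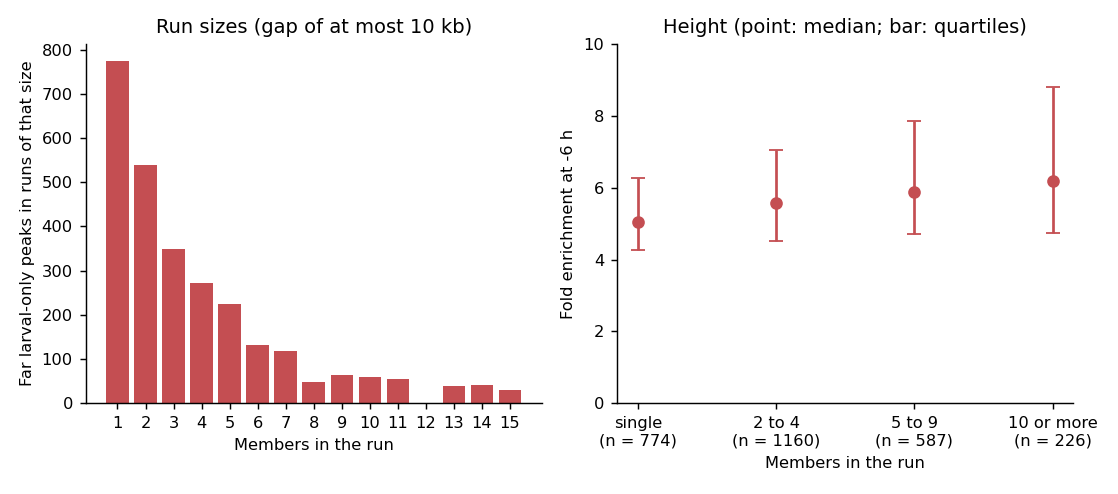
Number of far larval-only peaks by the size of the run they belong to (left), and their fold enrichment at -6 h by run size (right; points are medians and bars the quartiles). Single peaks number 774 with a median of 5.04, and the 226 peaks in runs of 10 or more have a median of 6.18.

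The 3 longest runs differed in how their peaks were laid out. The run at chr2L:11049047-11072335 held 15 far peaks over 23.3 kb, and 10 of the 14 gaps between them were at most 1 kb. Its peaks ranged from 3.70 to 16.1 in fold enrichment around a median of 7.59, and from 65 to 458 bp in width. The 2 highest were neighbours at its centre, at chr2L:11059184-11059620 (16.1-fold, -log10 q of 36.3) and chr2L:11060334-11060733 (14.8-fold, -log10 q of 32.0), only 713 bp apart. The nearest shared peak was 83.2 kb away.

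The run at chrX:2183264-2220307 also held 15 far peaks, spread over 37.0 kb with a median gap of 2.08 kb. They were lower, from 3.33 to 10.5 in fold enrichment around a median of 6.18, and none reached a -log10 q above 18.8. The run at chrX:4919725-4947318, chosen by its highest peak among 3 runs of 14, covered 27.6 kb. One of its peaks stood out at 17.1-fold and a -log10 q of 40.1, against a median of 5.94-fold for the run, and the nearest shared peak was 733 kb away.

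**Figure D5:**
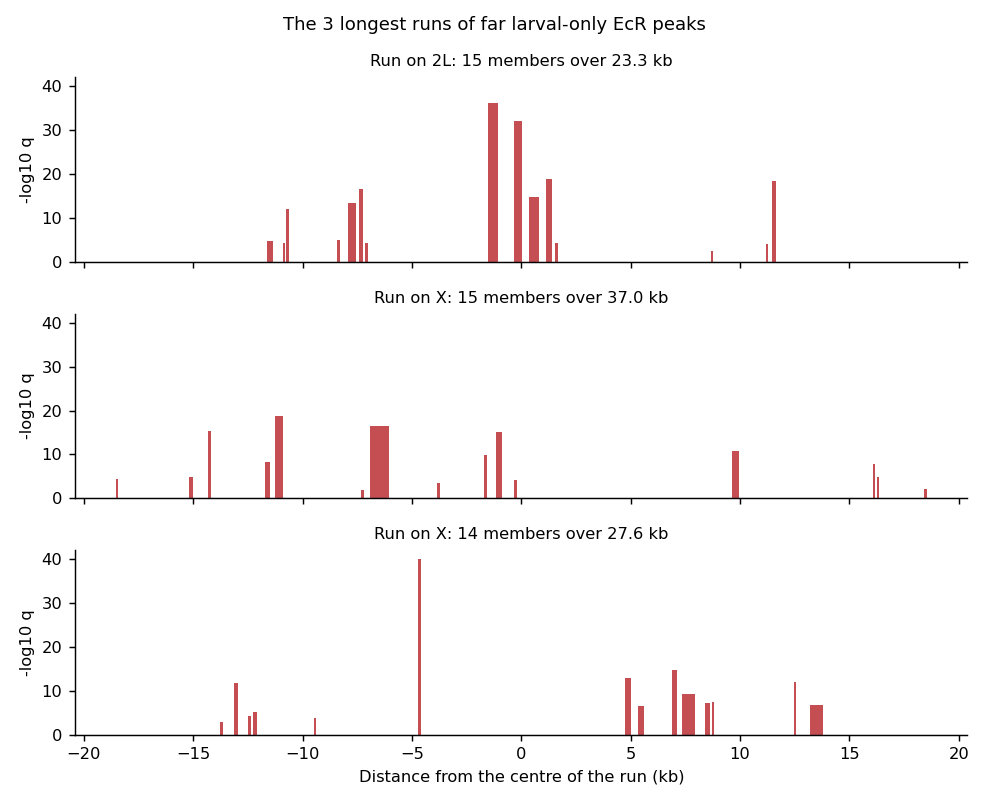
The -log10 q of each far larval-only peak in the 3 longest runs, by distance from the centre of the run in kb; the narrowest peaks are drawn slightly wider than they are. The run on 2L has its 2 highest peaks side by side near the centre, at 36.3 and 32.0, and the second run on X has a lone high peak at 40.1.

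Between successive shared peaks there were 397 intervals longer than 20 kb, the shortest length that leaves room for a far peak. Far peaks were present in 317 of them and absent from 80, with a median of 5 per interval. Another 46 far peaks lay beyond the first or last shared peak of an arm. The 10 fullest intervals held 357 far peaks (13.0%). The fullest, at chr3L:6295033-7976761, held 50 over 1682 kb, or 2.97 per 100 kb. A shorter interval on the X, at chrX:1979448-2255087, held 31 over 276 kb, or 11.2 per 100 kb, and contained the second of the runs above. The interval at chr2R:9963073-11135274 held 43 far peaks over 1172 kb and included the solitary peak of 30.7-fold described above.

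All chromosome arms held far peaks. They made up 61.7% of the -6 h peaks on 2R (531 of 860), 57.5% on 3R (628 of 1092), 56.2% on 2L (487 of 866), 54.3% on X (458 of 844) and 49.3% on 3L (640 of 1299). Far peaks were densest on 3L all the same, at 27.7 per Mb between the first and the last -6 h peak, against 20.6 to 26.5 on the other 4 large arms. Shared peaks on 3L numbered 9.40 per Mb, against 5.66 to 6.43 on those 4 arms. The median fold enrichment of far peaks lay between 5.47 on X and 5.56 on 2L over the large arms. Chromosome 4 had 3 far peaks among 4 peaks in all, the highest at chr4:89282-89454 with 8.47-fold enrichment, and its only shared peak lay 761 kb from it.

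Some far peaks lay next to a +6 h peak without sharing a base with it. The rule measured distance to shared peaks only, and 244 far peaks (8.88%) lay within 10 kb of a +6 h peak that overlapped no -6 h peak, 37 of them (1.35%) within 1 kb and 6 within 100 bp. The shares of near and shared peaks that lay so close are not given here, so this need not be particular to far peaks. The 37 had a median fold enrichment of 6.49, and the highest of them was 11.3-fold enriched. The closest pair was at chr3L:11144119-11144185 at -6 h, 4 bp from a +6 h peak at chr3L:11144190-11144337. The highest of the 6, at chr3L:18132220-18132682 with 11.3-fold enrichment at -6 h, was 74 bp from the +6 h peak at chr3L:18132074-18132145.

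The numbers in the names of the peaks bear on what the lists hold. They follow genome position within each arm, and the +6 h numbers run to 1653 for 1210 listed peaks, while the -6 h numbers run to 6180 for 4965. Thus 443 numbered +6 h peaks (26.8%) and 1215 numbered -6 h peaks (19.7%) were not analysed here. Of the far peaks, 1229 (44.7%) lay between +6 h peaks with consecutive numbers, so that no other numbered +6 h peak falls between them, provided the numbers are in genome order throughout. For the other 1518 at least 1 number was skipped in the interval, and the 481 intervals that held far peaks skipped 320 numbers in all. Both sets had like heights, with a median fold enrichment of 5.54 in the 1229 and 5.50 in the 1518. They differed in position, with a median gap to the nearest +6 h peak of 28957 bp in the 1229 and 65119.5 bp in the 1518. The share of all -6 h peaks between consecutive numbers is not given here. Of the 10 highest far peaks, 5 lay between consecutive numbers.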

How the data were processed

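The authors' deposited peak lists give, per peak, a dm3 position, a score equal to 10 times the -log10 q cut to a whole number, a ratio of enrichment (fold over background), -log10 values of p and q, and a summit offset. Tools named for these lists in the submitters' processing notes, without roles, are MACS2 2.1.1.20160309, bedtools 2.25.0, Picard 2.2.4, SAMtools 1.3.1 and Bowtie2 2.2.8. Peak names say that replicates were merged. Coordinates were read as 1-based, since width equals end minus start plus 1. Fold enrichment and q were compared only within a list, except that 1 alternative given below cut both lists at the same -log10 q of 10. RNA values are the authors' deposited normalized counts, a signal scaled per library, per the file name. It was used only for levels of marker genes, matched by symbol without regard to case (sal, omb and nSyb matched none, and salm and bi are the genes also called sal and omb).

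Distances are counts of bases between peak edges. They were computed in Python 3.11.15 with pandas 2.3.3, and the classification was tested on simulated layouts. Named peaks are the 10 highest members, the highest of each arm, the 2 on either side of the 10 kb limit, the 5 farthest from a shared peak, the lowest, the members on chromosome 4 and the 3 longest runs. The lowest peak, the closest pairs with a +6 h peak, the fullest intervals and single peaks of the runs were chosen after their values were seen. The members and lists were chosen with earlier results of these data known. No gene model or sequence of dm3 was used here, so peaks were not assigned to genes and the planned RNA comparisons of neighbouring genes were not made.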

Additional observations from a re-analysis of the deposited data

How the results depend on the processing

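The number of far larval-only peaks was 2747. It was 3093 with a limit of 5 kb and 2332 with 20 kb, and 1661 with 50 kb. With 50% of the -6 h peak to be covered before it counted as shared it was 3577. It was 2700 with +6 h peaks widened by 500 bp, 2503 with a distance of over 10 kb from every +6 h peak, and unchanged with the major arms alone, which hold all listed peaks. With a -log10 q of at least 10 in both lists it was 941, with a median fold enrichment of 9.34 and 61.0% of far peaks in runs. Of the 1883 -6 h and 542 +6 h peaks at that level, 419 -6 h peaks were shared. All 659 members that reached the level were among the 941. The rule fixes this in advance, because a stricter level can only remove +6 h peaks and shared peaks, so it is no check of the members. With only as many of the strongest -6 h peaks as the +6 h list has, it was 328. Between +6 h peaks with consecutive numbers, an alternative chosen after seeing the data, it was 1229. The median fold enrichment of 5.51 was also computed with limits of 5 and 20 kb, widened +6 h peaks, the major arms alone and consecutive numbers, and lay between 5.47 and 5.60 there. The share of far peaks in runs, 71.8%, was 63.3% with gaps of at most 5 kb and 80.9% with gaps of at most 20 kb. Of the choices tried, limiting the lists to higher peaks moved the number of members most. No paired analysis was possible because the authors called peaks on merged replicates, and for the same reason no replicate could be left out. The alternatives planned for RNA of neighbouring genes were not run.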
